A study of Mus musculus with 6 samples.

Results

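Ribosome biogenesis and MYC network genes were examined in bone marrow-derived macrophages (BMDMs) labelled wild type or Scd2-m/-m, the latter with a myeloid deletion of Scd2, which encodes stearoyl-CoA desaturase 2. The set was a named list of 46 genes, found by gene symbol among 40481 genes of the count table, and all 46 were among the 14778 genes expressed highly enough to be tested. Of these, 39 encode ribosome biogenesis factors or RNA polymerase I components, 4 belong to the MYC network and 3 are enzymes of polyamine or pyrimidine synthesis. The RNA-seq series held 6 poly(A)-selected libraries, 3 labelled wild type and 3 labelled Scd2-m/-m. The Scd2-m/-m cells came from mice with floxed Scd2 alleles deleted by a lysozyme M-Cre transgene, which is active in myelomonocytic cells, so the deletion applies to that lineage and its completeness can vary from cell to cell. Mice were male or female and 2 to 5 months old in the study, with no sex or age given per library, and the marrow was cultured for 5 to 6 days in medium conditioned by CMG cells and left without an inflammatory stimulus. Nothing in the labels says whether replicates came from separate animals, so p-values measure the spread between these libraries, which may be technical.

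Ribosome biogenesis starts in the nucleolus, where RNA polymerase I transcribes the precursor of most ribosomal RNAs. Small nucleolar ribonucleoproteins (snoRNPs) modify and help to cut this precursor, and many further factors fold, trim and assemble it with ribosomal proteins into small and large subunits. MYC is a transcription factor that binds DNA as a dimer with MAX and is known for raising the transcription of ribosome biogenesis, polyamine and nucleotide synthesis genes in growing cells. MXD and MXI1 proteins also pair with MAX and repress E-box genes.

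The libraries held between 46285176 and 57629638 counts on genes, and individual members had 199 to 15257 counts per library. The targeted gene, Scd2 (chr19:44293674-44306864, GRCm38), was counted over all of its exons, and the exons removed by the deletion were not given in the sources used here. Its level in CPM (counts scaled by the library's total) was 66.9, 77.8 and 62.7 in wild-type replicates 1 to 3 and 59.5, 38 and 39.8 in Scd2-m/-m replicates 1 to 3. The Scd2-m/-m mean was 66.2% of the wild-type mean, with no overlap between genotypes, but the difference did not pass the test (log2 fold change −0.59, SE 0.19, false discovery rate [FDR] 0.1, edgeR). The library labelled Scd2-m/-m replicate 1 lay nearest to wild type, and without it the log2 fold change was −0.83 (FDR 8.87e-05, edgeR). By quantitative PCR the paper reports a stronger loss of Scd2 transcript in Scd2-m/-m macrophages, a different measure from counts over all exons. Every genotype difference below is between libraries as labelled.

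Of the ribosome biogenesis and MYC network genes, many fell in Scd2-m/-m BMDMs and none rose. A gene was called when its FDR from edgeR's quasi-likelihood test, adjusted over all genes tested by the Benjamini-Hochberg method, was below 0.05. Of the 46 members, 22 were called, and all 22 were lower in Scd2-m/-m libraries (47.8%). Among all genes tested, 17.5% were called, 7.84% lower and 9.65% higher. The members were chosen with earlier results of these data known, so these shares are a description only. No member was called higher by edgeR, limma-voom or DESeq2, and the 4 members with a positive log2 fold change (Npm1, Wdr12, Mxd1 and Max) each had an unadjusted p above 0.05. Over the members the median log2 fold change stood at −0.26, and over all genes tested at 0.00. Falls among called members ran from 0.23 to 0.76 on the log2 scale, which left 85.3% to 59.1% of the wild-type mean, so the differences were modest in size. In bulk RNA, fewer cells of a type and less RNA per cell cannot be told apart.

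For most members the libraries of the genotypes did not overlap. In 30 of 46 (65.2%), the 3 Scd2-m/-m libraries all lay below the 3 wild-type libraries, against 17.0% of all genes tested (17.9% did not overlap in the higher direction, 34.9% in either). None of the members was separated in the higher direction. Of these 30, 9 were not called by edgeR, so separation alone does not show a difference beyond the replicate spread. The median member, relative to its wild-type mean on the log2 scale, stood at 0.07, −0.01 and −0.07 in wild-type replicates 1 to 3 and at −0.28, −0.21 and −0.27 in Scd2-m/-m replicates 1 to 3. The same medians over all genes tested were 0.00 in every library to 2 decimals. Wild-type replicate 1 had the highest member levels and the genotypes did not overlap in this measure. Summed over members, CPM was 1717, 1643 and 1589 in the wild-type libraries and 1404, 1457 and 1554 in the Scd2-m/-m libraries. Npm1 alone held 262 of the 1554 CPM in Scd2-m/-m replicate 3.

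The number of calls depended on the libraries used. Leaving out Scd2-m/-m replicate 1 or 2 left 14 or 10 members called, and leaving out wild-type replicate 1 or 2 left 12 in each case. It was 15 without Scd2-m/-m replicate 3 and 18 without wild-type replicate 3. Over all genes the share called in these fits also moved, to 17.0% and 9.53% without Scd2-m/-m replicate 1 or 2, 15.3% and 9.83% without wild-type replicate 1 or 2, 13.4% without Scd2-m/-m replicate 3 and 15.1% without wild-type replicate 3. All 22 called members kept a negative log2 fold change under each of 16 alternatives in libraries or method. The 9 members called under all 16 were Nolc1, Ddx21, Mybbp1a, Fbl, Nop10, Bop1, Ubtf, Cad and Srm, and each other called member lost its call in at least 1 fit with a library left out.

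**Figure D1:**
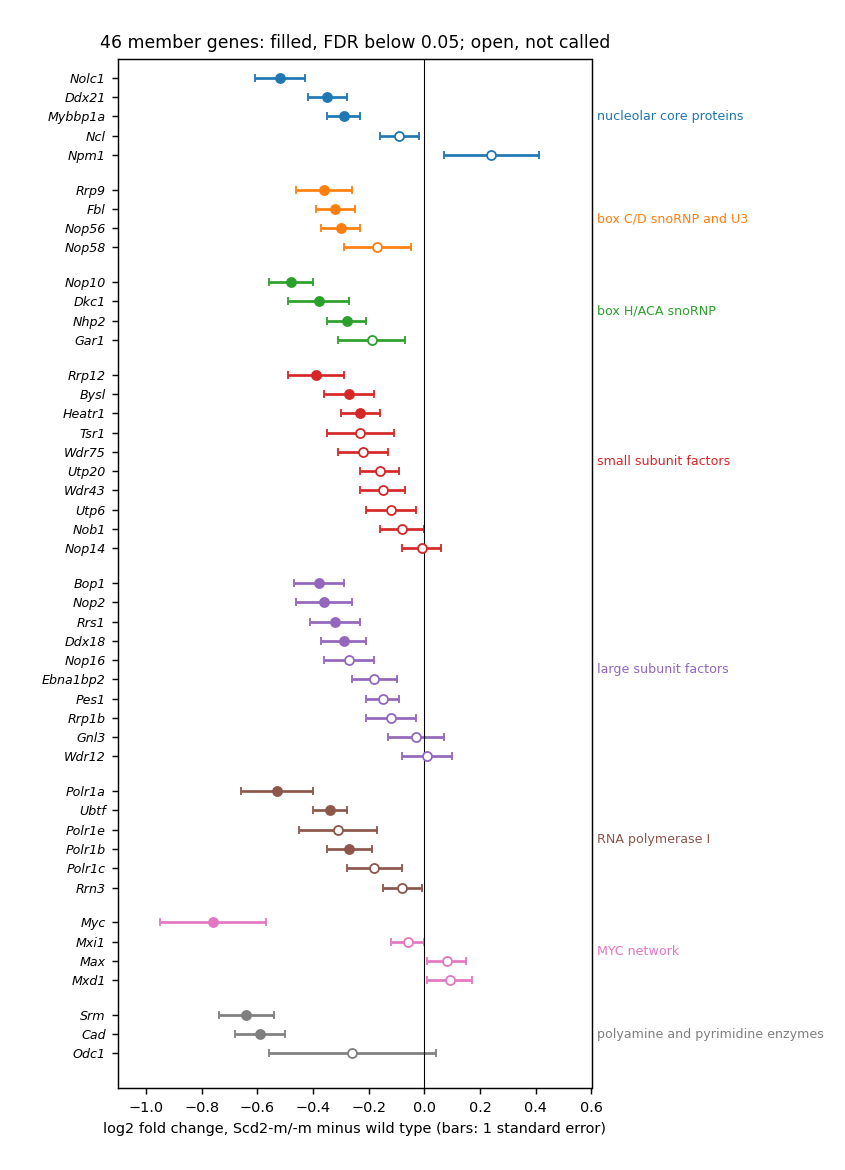
Log2 fold change of each of the 46 members (Scd2-m/-m minus wild type, horizontal axis), grouped by role, with bars of 1 standard error from edgeR and filled points for FDR below 0.05. All 22 filled points lie left of 0, from −0.23 (Heatr1) to −0.76 (Myc), and the open points reach from −0.31 (Polr1e) to 0.24 (Npm1).

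**Figure D2:**
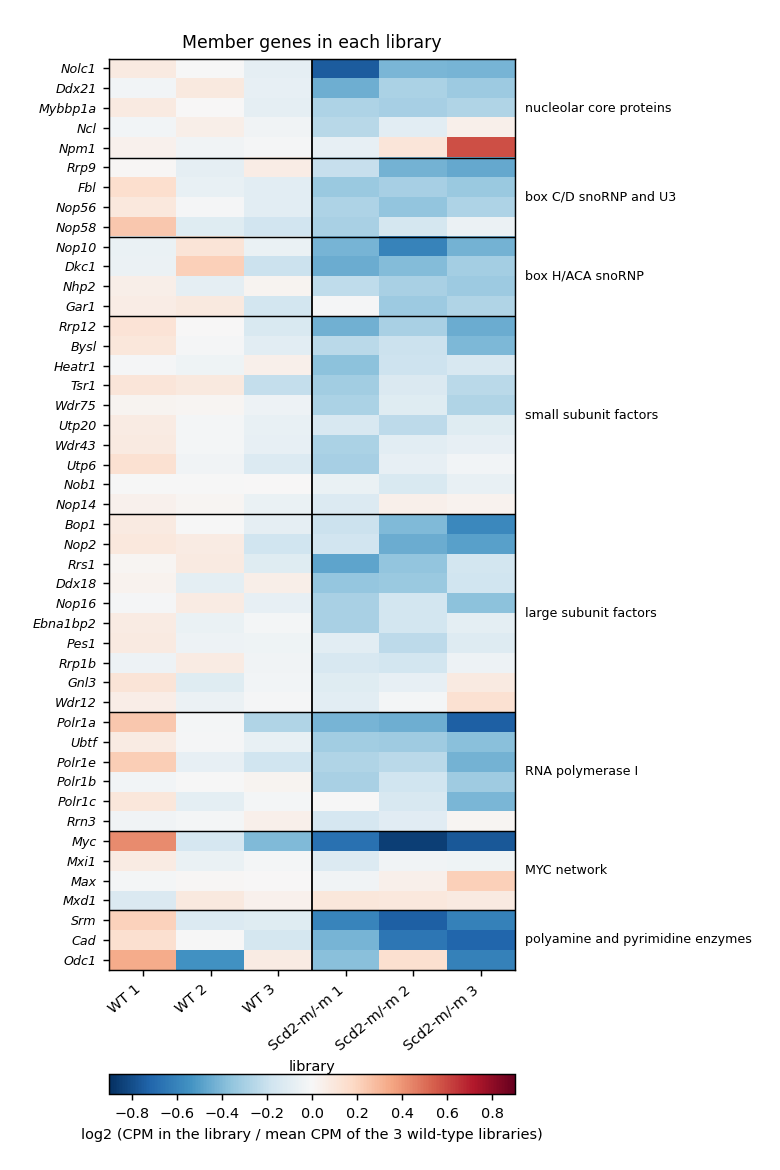
Level of each member in each of the 6 libraries as log2 of CPM over the mean of the 3 wild-type libraries (colour scale, blue lower and red higher). The Scd2-m/-m columns are mostly blue, with 45, 41 and 38 of 46 members below the wild-type mean in replicates 1 to 3. In wild-type replicates 1 to 3, 12, 30 and 36 members lie below that same mean, so these counts do not separate the genotypes clearly. Npm1 in Scd2-m/-m replicate 3 is the strongest red cell.

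Among the 4 MYC network members, only Myc itself passed the test. Myc (chr15:61985391-61990374, plus strand), the transcription factor that names the network, was at 15.1, 10.1 and 8.52 CPM in the wild-type libraries and at 7.06, 6.25 and 6.62 CPM in the Scd2-m/-m libraries. All 3 Scd2-m/-m values lay below the lowest wild-type value, and wild-type replicate 1 stood well above the other two. Wild-type libraries averaged 11.2 ± 3.43 CPM and Scd2-m/-m libraries 6.64 ± 0.407 CPM (SD, n = 3), or 59.1% of wild type. The log2 fold change of −0.76 (SE 0.19) was the largest fall among members and had an FDR of 0.0201 by edgeR. An exact two-sided permutation test of the means gave p = 0.1, the smallest value that 3 against 3 libraries can give. The call was lost without any 1 of the Scd2-m/-m libraries, at −0.80 (FDR 0.0681, edgeR) without replicate 1, −0.72 (0.0854) without replicate 2 and −0.76 (0.118) without replicate 3. Without wild-type replicate 1 the fall was smaller, at −0.49, and still called (FDR 0.0138).

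The other 3 MYC network members, a partner and 2 antagonists of MYC, were not called. Max, the dimer partner of MYC, was at 86.2, 87.9 and 87.3 CPM in wild type and 85.2, 89.9 and 101 CPM in Scd2-m/-m, with a log2 fold change of 0.08 (SE 0.07, FDR 0.466, edgeR) and a range of 2 SE from −0.06 to 0.21. Mxd1, which encodes a repressor that pairs with MAX, was at 16.9, 19.7 and 19.0 CPM in wild type and 19.9, 19.8 and 19.6 CPM in Scd2-m/-m (0.09, SE 0.08, FDR 0.455, 2 SE from −0.06 to 0.25). Mxi1, a further MAX-pairing repressor, was at 41.8, 38 and 39.3 CPM in wild type and 36.4, 38.9 and 38.7 CPM in Scd2-m/-m (−0.06, SE 0.06, FDR 0.56, 2 SE from −0.19 to 0.07). The genotypes overlapped for all 3 genes, and these ranges do not reach a fall as large as that of Myc. Levels of different genes were compared per kilobase of annotated exon. On that scale Myc fell from 4.14 ± 1.26 to 2.45 ± 0.15 CPM per kb, whereas the wild-type and Scd2-m/-m means were 24.2 and 25.6 for Max, 2.62 and 2.80 for Mxd1, and 5.82 and 5.57 for Mxi1. The ratio of Mxd1 plus Mxi1 to Myc on this scale was 1.53, 2.24 and 2.70 in the wild-type libraries and 3.14, 3.70 and 3.47 in the Scd2-m/-m libraries. It was thus higher in each Scd2-m/-m library, a description that follows from the level of Myc.

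**Figure D3:**
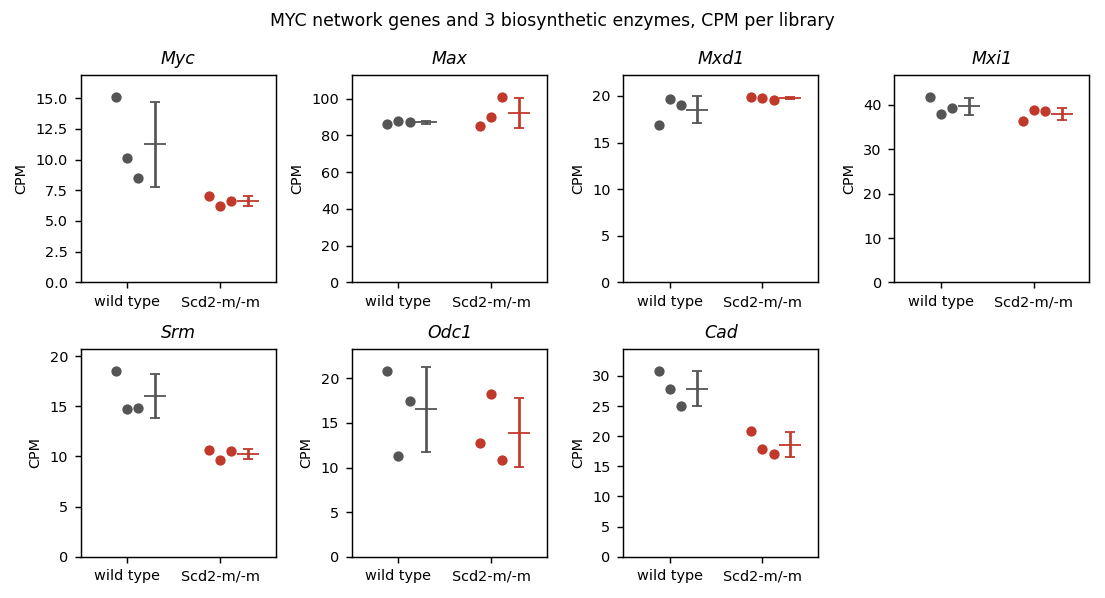
CPM per library (vertical axes from 0) of Myc, Max, Mxd1, Mxi1, Srm, Odc1 and Cad in wild-type (grey) and Scd2-m/-m (red) BMDMs, with the mean and SD of 3 libraries beside the points. Myc, Srm and Cad are separated between genotypes, whereas Max, Mxd1, Mxi1 and Odc1 overlap.

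Of the 3 biosynthetic enzymes, Srm and Cad fell and Odc1 did not pass the test. Srm (chr4:148591503-148594993, plus strand) encodes spermidine synthase. It was at 18.5, 14.7 and 14.8 CPM in wild type and 10.6, 9.63 and 10.5 CPM in Scd2-m/-m, which is 64.2% of the wild-type mean (log2 fold change −0.64, SE 0.10, FDR 7.00e-04, edgeR). Cad (chr5:31054780-31078479, plus strand) encodes the protein of the first steps of pyrimidine synthesis. It was at 30.8, 27.9 and 25 CPM in wild type and 20.9, 17.8 and 17.0 CPM in Scd2-m/-m, or 66.4% of wild type (−0.59, SE 0.09, FDR 6.56e-04). Neither gene overlapped between genotypes. Odc1, which encodes ornithine decarboxylase, the enzyme that makes putrescine, was at 20.8, 11.3 and 17.4 CPM in wild type and 12.7, 18.2 and 10.8 CPM in Scd2-m/-m (−0.26, SE 0.30, FDR 0.636). Coefficients of variation were 29.2% (wild type) and 27.6% (Scd2-m/-m), far above the member medians of 5.61% and 6.75%, and the range of 2 SE around its log2 fold change ran from −0.85 to 0.34.

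MYC and MAX bind the E-box, CACGTG, and the RefSeq promoter table (GRCm38.p6, 250 bases before to 50 after each start) held 38 of the 46 members. An E-box, searched as CACGTG, which reads alike on both strands, was in the promoters of 8 of 38 members (21.1%), against 11.7% of the 10188 tested genes in the table and 8.09% of all 27025 genes. It was in 2 of 16 members called lower (12.5%) and in 6 of 22 that were not called (27.3%). The table lacked Rrs1, Bop1, Myc, Srm, Fbl and Rrp12, which were called, and Npm1 and Utp6, which were not. Called members were thus read less completely, and these shares cannot tell whether the box is rarer among them. Of the 8, only in Rrn3, which encodes a polymerase I initiation factor, and Nop2, which encodes a methyltransferase of ribosomal RNA, did the box lie wholly before the start, and the 250 bases before those starts are shown to give its surroundings, with the E-box in capitals. The Rrn3 stretch is chr16:13780449-13780698 and the Nop2 stretch chr6:125131633-125131882, both on the plus strand of GRCm38.p6 and written 5′ to 3′.
Rrn3: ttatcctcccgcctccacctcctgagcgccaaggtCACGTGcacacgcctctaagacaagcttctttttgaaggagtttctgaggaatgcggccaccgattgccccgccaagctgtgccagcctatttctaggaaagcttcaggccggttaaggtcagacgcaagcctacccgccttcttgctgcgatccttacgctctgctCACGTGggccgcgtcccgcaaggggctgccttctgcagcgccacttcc
Nop2: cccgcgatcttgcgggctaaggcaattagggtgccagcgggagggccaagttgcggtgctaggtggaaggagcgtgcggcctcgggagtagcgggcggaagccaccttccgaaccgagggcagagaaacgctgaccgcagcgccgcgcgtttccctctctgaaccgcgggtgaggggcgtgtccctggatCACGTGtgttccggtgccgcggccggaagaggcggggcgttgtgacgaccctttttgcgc
Rrn3 has 2 boxes, which begin 215 and 48 bases before the start, and Nop2 has 1, which begins 60 bases before it. An ETS-type motif, CCGGAAG on either strand, was in 10 of 38 members (26.3%) and 20.2% of tested genes, and in Nop2 it begins 38 bases before the start. A match is a description of these letters and not evidence of binding.

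Of 6 genes for transcription by RNA polymerase I, 3 fell. Ubtf (chr11:102304560-102319742, minus strand), the upstream binding factor of ribosomal DNA, was at 103, 97.2 and 93.2 CPM in wild type and 78.8, 78.2 and 75.4 CPM in Scd2-m/-m. Its mean fell to 79.2% of wild type, with tight and separate groups (log2 fold change −0.34, SE 0.06, FDR 0.00150, edgeR). Polr1a (chr6:71909053-71984935, plus strand), the largest catalytic subunit, was at 47.8, 40.1 and 33.6 CPM in wild type and 30.3, 29.8 and 24.3 CPM in Scd2-m/-m (−0.53, SE 0.13, FDR 0.0240). It had the wider spread of the pair, and its call was lost without Scd2-m/-m replicate 1, 2 or 3 or without wild-type replicate 2. Polr1b, the other subunit of the catalytic centre, was at 14, 14.2 and 14.5 CPM in wild type and 11.6, 12.6 and 11.4 CPM in Scd2-m/-m (−0.27, SE 0.08, FDR 0.0412). This call was marginal, and each of the 6 fits with a library left out lost it. So did DESeq2, upper-quartile scaling, no scaling factors and no filter on low counts, with all 6 libraries kept. Polr1e, a subunit peculiar to polymerase I, did not overlap, at 5.48, 4.45 and 4.15 CPM in wild type and 3.89, 3.96 and 3.49 CPM in Scd2-m/-m, but was not called (−0.31, SE 0.14, FDR 0.159). Polr1c, a subunit shared with polymerase III, was not called either (−0.18, FDR 0.237). Rrn3, whose promoter is printed above with its 2 E-boxes, had the largest p of the group, at 33.0, 33.4 and 34.8 CPM in wild type and 30.4, 31.4 and 34.2 CPM in Scd2-m/-m (−0.08, SE 0.07, FDR 0.487).

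Among 5 abundant nucleolar proteins, Nolc1, Ddx21 and Mybbp1a fell, whereas Ncl and Npm1 did not pass the test. Nolc1 (chr19:46075863-46085530, plus strand) encodes a nucleolar and Cajal body phosphoprotein that binds snoRNPs. It was at 26.6, 25.1 and 23.8 CPM in wild type and 15.0, 18.9 and 18.8 CPM in Scd2-m/-m, or 69.9% of wild type (log2 fold change −0.52, SE 0.09, FDR 0.00156, edgeR). Ddx21, an RNA helicase of the nucleolus, was at 59.4, 64.3 and 57.5 CPM in wild type and 44.6, 49.5 and 48.2 CPM in Scd2-m/-m (−0.35, SE 0.07, FDR 0.00257). Mybbp1a, a nucleolar MYB-binding protein, was at 112, 106 and 100 CPM in wild type and 87.3, 86.0 and 88.0 CPM in Scd2-m/-m (−0.29, SE 0.06, FDR 0.00436). The genotypes were separate for all 3. Npm1, nucleophosmin, behaved differently among replicates. It was at 180, 171 and 174 CPM in wild type and 166, 189 and 262 CPM in Scd2-m/-m (0.24, SE 0.17, FDR 0.404). Scd2-m/-m replicate 3 stood apart, and without it the log2 fold change was 0.02. Ncl, nucleolin, was at 187, 197 and 186 CPM in wild type and 160, 178 and 196 CPM in Scd2-m/-m (−0.09, SE 0.07, FDR 0.434). Per kilobase, Npm1 was the member with the highest wild-type level, at 65.5 CPM per kb, and Nop58 was the lowest, at 1.00.

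Nolc1 and Rrp12 lie on the same chromosome as the targeted gene, 1.77 and 2.40 Mb from Scd2, and both fell. Mxi1 lies 9 Mb away and was not called. Of the 105 genes tested within 5 Mb of Scd2, 19 were called lower (18.1%) and 8 higher, against 7.84% and 9.65% of all genes tested. The part of this position in the results for Nolc1 and Rrp12 was not tested.

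In each of the snoRNP classes, 3 of 4 members fell. In the box C/D class, which guides 2′-O-methylation of RNA, Fbl encodes the methyltransferase fibrillarin. Fbl was at 63.6, 54.8 and 53.6 CPM in wild type and 45.4, 46.6 and 45.5 CPM in Scd2-m/-m (log2 fold change −0.32, SE 0.07, FDR 0.00656, edgeR). Nop56, a core scaffold of the particle, was at 25, 23.2 and 21.9 CPM in wild type and 19.3, 18.3 and 19.3 CPM in Scd2-m/-m (−0.30, SE 0.07, FDR 0.0132). Rrp9, a protein of the U3 particle that acts in cutting the precursor, was at 9.93, 9.28 and 10.3 CPM in wild type and 8.51, 7.32 and 7.14 CPM in Scd2-m/-m (−0.36, SE 0.10, FDR 0.0279). These genes did not overlap between genotypes. Nop58, the partner scaffold of Nop56, was at 12.8, 10.0 and 9.58 CPM in wild type and 8.82, 9.67 and 10.4 CPM in Scd2-m/-m, with overlap (−0.17, SE 0.12, FDR 0.375).

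In the box H/ACA class, which guides pseudouridylation and also binds telomerase RNA, Nop10 fell most. Nop10 (chr2:112261926-112263269, plus strand), a small core protein, was at 35.8, 40.6 and 35.8 CPM in wild type and 28.0, 24.7 and 27.8 CPM in Scd2-m/-m, or 71.7% of wild type (log2 fold change −0.48, SE 0.08, FDR 6.02e-04, edgeR). Nhp2, which binds the guide RNA, was at 21.9, 19.9 and 21.4 CPM in wild type and 18.0, 17.2 and 16.8 CPM in Scd2-m/-m (−0.28, SE 0.07, FDR 0.0171). Dkc1, which encodes the pseudouridine synthase dyskerin, was at 9.95, 12 and 9.01 CPM in wild type and 7.58, 7.86 and 8.34 CPM in Scd2-m/-m (−0.38, SE 0.11, FDR 0.0351). All 3 were separate between genotypes. Gar1, the remaining core protein, was at 9.21, 9.32 and 7.83 CPM in wild type and 8.71, 7.02 and 7.30 CPM in Scd2-m/-m and was not called (−0.19, SE 0.12, FDR 0.288).

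Of 10 small subunit factors, 3 fell. All 10 had negative log2 fold changes (median −0.19) and 7 did not overlap between genotypes, but only Rrp12, Heatr1 and Bysl were called. Rrp12, which acts in processing and export of the small subunit, was at 12.1, 11.1 and 10.1 CPM in wild type and 8.24, 9.07 and 8.16 CPM in Scd2-m/-m (−0.39, SE 0.10, FDR 0.0173, edgeR). Heatr1, a factor for polymerase I transcription and early processing, was at 38.8, 38 and 40.4 CPM in wild type and 30.2, 34.4 and 35.4 CPM in Scd2-m/-m (−0.23, SE 0.07, FDR 0.0414). Bysl, bystin, which acts late in small subunit maturation, was at 18.0, 16.7 and 15.7 CPM in wild type and 14.2, 14.7 and 12.7 CPM in Scd2-m/-m (−0.27, SE 0.09, FDR 0.0454). The calls of Heatr1 and Bysl were near the threshold, and DESeq2, limma-voom and upper-quartile scaling each lost that of Bysl. Wdr75, a component of the early processome, was separate between genotypes but not called, at 12.3, 12.2 and 11.7 CPM in wild type and 9.91, 11.2 and 10.0 CPM in Scd2-m/-m (−0.22, SE 0.09, FDR 0.120). Utp20, Wdr43, Tsr1, Utp6 and Nob1 lay between −0.08 and −0.23 and were not called. Nop14 had the largest p, at 22.6, 22.3 and 21.1 CPM in wild type and 20.2, 22.7 and 22.5 CPM in Scd2-m/-m (−0.01, SE 0.07, FDR 0.947).

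Among 10 large subunit factors, Bop1, Nop2, Ddx18 and Rrs1 fell (median of all 10, −0.23), and 7 of the 10 did not overlap. Bop1 (chr15:76452989-76477277, minus strand) belongs to the complex of PES1, BOP1 and WDR12 that large subunit maturation requires. It was at 51.8, 48.9 and 46.3 CPM in wild type and 42.8, 37.2 and 32.8 CPM in Scd2-m/-m, or 76.8% of wild type (log2 fold change −0.38, SE 0.09, FDR 0.00833, edgeR). Nop2, whose promoter is printed above, was at 31.2, 30.7 and 25.8 CPM in wild type and 25.9, 21.5 and 20.8 CPM in Scd2-m/-m (−0.36, SE 0.10, FDR 0.0185). It was the only called member whose genotypes overlapped, by wild-type replicate 3 and Scd2-m/-m replicate 1. Ddx18, a nucleolar helicase, was at 21.4, 19.7 and 21.8 CPM in wild type and 16.5, 16.6 and 18.5 CPM in Scd2-m/-m (−0.29, SE 0.08, FDR 0.0223). Rrs1, which acts with the 5S particle in large subunit assembly, was at 16.6, 17.3 and 15.2 CPM in wild type and 11.8, 12.8 and 14.6 CPM in Scd2-m/-m (−0.32, SE 0.09, FDR 0.0303). Nop16 lay just beyond the threshold at −0.27 (FDR 0.0520), and Pes1, Ebna1bp2, Rrp1b and Gnl3 lay between −0.03 and −0.18 without a call.

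Within the PES1, BOP1 and WDR12 complex the genes thus stood at unlike values. Pes1 had a log2 fold change of −0.15 (FDR 0.136, edgeR), with separate genotypes. Wdr12 had the largest p among large subunit factors, at 12.8, 11.8 and 12.2 CPM in wild type and 11.5, 12.1 and 13.5 CPM in Scd2-m/-m (0.01, SE 0.09, FDR 0.941). The ratio of Bop1 to Wdr12 CPM was 4.06, 4.15 and 3.80 in wild type and 3.72, 3.08 and 2.43 in Scd2-m/-m. This ratio was chosen after its values were seen, and no test of it was made.

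Some members share sequence with other transcripts, and whether counting used strand was not given in the sources used here. Exons of 10 members overlap, on the opposite strand, exons of a gene with a mean above 100 counts. The longest overlaps were 616 bases between Tsr1 and Srr and 361 bases between Bysl and Ccnd3. Dkc1 overlaps 45 bases of Mpp1, which had a mean of 15466 counts against 468 for Dkc1 and rose by 0.38 on the log2 scale. Lgals8 and Parp3, which overlap Heatr1 by 155 and Rrp9 by 20 bases, rose by 0.30 and 0.44, opposite to those members. Of the 46 members, 8 have snoRNA genes within their bounds, which overlap annotated exons in 4 (Ncl, Nop56, Nop58 and Gnl3), and processed copies of Npm1 and other abundant members could share reads with them. Values of these genes are less certain for that reason.

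Other genes of the same pathways were listed from general knowledge, with earlier results of these data known. Across 110 tested ribosome biogenesis genes outside the 46, 20 were called lower and 1 higher, or 21 in all, beside 7.84% lower and 9.65% higher over all genes. The median log2 fold change of the 110 was −0.10, and 86 values were negative. The count was 12 without wild-type replicate 1 and 10 without wild-type replicate 2. Among further small subunit factors, 6 of 42 were called, all lower, and 2 without wild-type replicate 2. They included Imp4, a U3 particle protein, from 43.6 ± 0.326 to 36.1 ± 0.735 CPM (−0.27, FDR 0.00572, edgeR), and Aatf, a processome protein, from 15.2 ± 0.873 to 11.7 ± 0.610 CPM (−0.38, FDR 0.00804). Among further large subunit factors, 12 of 49 were lower and 1, Tex10, was higher, and these 13 calls became 7 without wild-type replicate 1 or 2 and 8 without Scd2-m/-m replicate 3. Noc2l, a nucleolar complex protein, fell from 96.5 ± 2.36 to 74.7 ± 4.22 CPM (−0.37, FDR 8.59e-04), and Las1l, a nuclease of the internal spacer, from 20.8 ± 0.129 to 15.5 ± 0.570 CPM (−0.43, FDR 0.00105). Of 9 snoRNP assembly genes only Snu13 fell (−0.26, FDR 0.0103), and of 10 further polymerase I genes only Tcof1, the treacle protein of the nucleolus, fell (−0.27, FDR 0.0138). In the lists of small subunit, snoRNP assembly and polymerase I genes, the share called did not exceed the 17.5% called over all genes in either direction. All calls in these lists were lower, however, and the like share over all genes is the 7.84% called lower. The snoRNP assembly and polymerase I lists held only 1 call each. The call of Snu13 was lost without Scd2-m/-m replicate 2, and that of Tcof1 without Scd2-m/-m replicate 2 or wild-type replicate 1 or 2.

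Lists of MYC relatives, targets and metabolic neighbours had no common direction. Beside the counts below, 17.5% of all genes tested were called, 7.84% lower and 9.65% higher. Of 8 further genes of the MYC, MAX and MLX network that were tested, 1 was called. This was Mxd3, a MAX-pairing repressor found in dividing cells, which rose from 0.257 ± 0.102 to 0.818 ± 0.239 CPM (log2 fold change 1.65, FDR 0.00930, edgeR) on only 9 to 60 counts per library. Of 29 reported MYC targets outside the members, 4 were lower and 2 higher (median −0.07). Hk2, hexokinase, fell from 79.2 ± 10.3 to 42.4 ± 3.03 CPM (−0.90, FDR 1.71e-05), and Fkbp4, a chaperone partner, from 49.2 ± 0.991 to 35.0 ± 0.596 CPM (−0.49, FDR 7.41e-05). The cell cycle genes Ccnd2 and Cdk4 rose (1.15 and 0.18). Of 11 polyamine pathway genes, Arg2, an arginase, fell (−0.81, FDR 0.0101) and Sms, spermine synthase, the step after Srm, rose (0.31, FDR 0.0263), but only 1 of the pair was called without Scd2-m/-m replicate 2 or 3 or without wild-type replicate 2 or 3. Of 16 nucleotide synthesis genes, Gart and Impdh2 fell (−0.56 and −0.35) and Prps2 and Paics rose (0.41 and 0.20). Gart and Paics act in the same purine pathway.

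**Figure D4:**
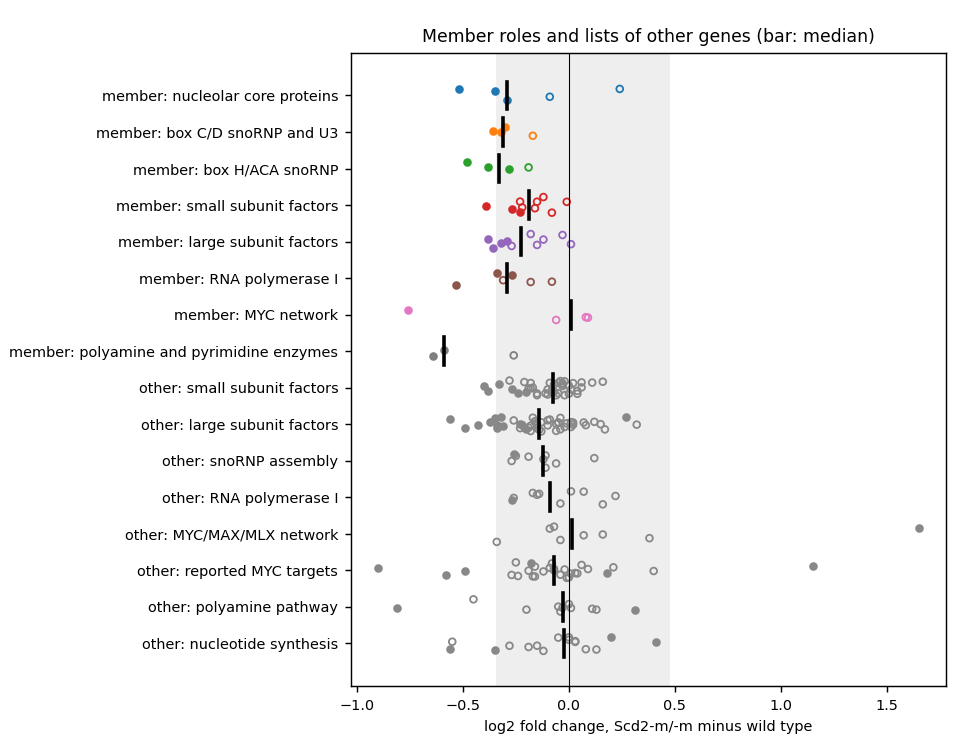
Log2 fold change (horizontal axis) of each tested gene in the 8 member roles and in 8 lists of other genes, with filled points for FDR below 0.05 and black bars for medians. The grey band spans the 10th to 90th percentile of all genes tested (−0.34 to 0.47), and the medians of the ribosome biogenesis roles and lists lie within it and below 0.

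Genes of dividing cells and some markers of cell types differed between genotypes beside these results. Which cells the division genes came from was not tested. All 18 of 18 genes of dividing cells rose (median log2 fold change 2.03), and their summed level was 64.8 to 74.2 CPM in wild type and 203 to 230 CPM in Scd2-m/-m. Monocyte and progenitor markers rose for 7 of 10 tested genes, with a summed level of 43.2 to 61.3 CPM in wild type and 103 to 163 CPM in Scd2-m/-m. Ccr2 alone held 37.6 to 56.5 and 89.9 to 148 CPM of these sums. Kit, Flt3, Mpo, Elane and Prtn3 were at or below 1.29 CPM in every library, and Cd34 was lower but not called (−0.50, FDR 0.570, edgeR). Of 8 tested neutrophil markers 5 rose and 1 fell, and the summed level overlapped, at 185 to 193 and 164 to 197 CPM. Csf3r, the gene that fell, held 157 to 168 and 127 to 149 CPM of these sums, and the others summed to 24.0 to 27.9 CPM in wild type and 37.5 to 48.1 CPM in Scd2-m/-m, without overlap. Ly6g was at 0 counts in each wild-type library and at 2, 0 and 2 counts in Scd2-m/-m replicates 1 to 3. Of 5 tested B cell markers 3 rose, with summed levels of 54.8 to 120 CPM and 85.0 to 117 CPM. Ighm, which was not called, held 51.9 to 116 and 77.3 to 110 CPM of these, and the others summed to 2.84 to 3.99 CPM in wild type and 6.76 to 9.14 CPM in Scd2-m/-m, without overlap. Of 8 T and NK cell markers, Cd4 was at 27.2 to 43.8 CPM in wild type and 34.1 to 37.0 CPM in Scd2-m/-m and was not called (−0.01, FDR 0.989, edgeR), and the other 7, Cd3e among them, had at most 7 counts each in any library. The macrophage markers were abundant in all 6 libraries, with a summed level of 15141 to 15362 CPM in wild type and 12513 to 12914 CPM in Scd2-m/-m. Adgre1, Csf1r and Mertk fell and Cd68 rose. Of 5 tested dendritic cell markers, Flt3 and Ccr7 rose, on at most 30 and 50 counts per library. None was called of the tested erythroid (2 of 6), mast cell and basophil (1 of 5) and stromal cell (3 of 6) markers. The others of these lists had too few counts to be tested. The part of these shifts in the lower levels of ribosome biogenesis genes was not tested.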

How the data were processed

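Poly(A)-selected RNA of 6 BMDM libraries, 3 wild type and 3 Scd2-m/-m, was sequenced. The authors aligned reads to the mouse genome (Ensembl primary assembly, GRCm38) with STAR. The deposited values are raw whole-number counts for each gene. Counting tool, strand setting and filters: not given in the sources used here. Among counts from 1 to 20, 60.9% to 64.9% were even, so a fit on halved counts was among the alternatives. A second deposited table with the authors' fold changes, intervals, p-values and log2 CPM was not used. From 40757 table lines, 276 repeated ones were removed, leaving 40481 genes.

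Genes were filtered with filterByExpr (14778 kept), scaled by TMM (factors 0.979 to 1.02) and tested between genotypes with edgeR 4.0.16 (robust quasi-likelihood test, R 4.3.3), with Benjamini-Hochberg adjustment over all genes tested and a threshold of 0.05. The test was run on simulated counts with planted changes larger than those of most called members, so that check does not cover changes of their size. CPM used TMM-scaled library sizes, and exon lengths came from GENCODE for GRCm38. Alternatives were DESeq2 1.42.0, limma 3.58.1 (voom, with and without quality weights), other scalings and filters, halved counts, a replicate block and omission of each library. The labels do not say whether replicate numbers pair samples, and the main test did not pair them. Deviations of same-numbered libraries correlated at 0.053, −0.0196 and 0.0398, and those of other pairs from −0.074 to 0.0409. These values cannot settle whether same-numbered libraries shared a batch. No replicates were duplicates (chi-square per gene 10.4 to 31.4).

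The members and the lists were chosen with earlier results of these data known. Genes named were Scd2, the MYC network and enzyme members, in each role up to 4 members with the smallest p and the one with the largest, the members with the highest and lowest level, and from every other list no more than 2 called genes, by p. Tex10, Impdh2, Paics, Ccnd2, Cdk4 and genes overlapping members or marking cell types were named after their values were seen.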

Additional observations from a re-analysis of the deposited data

How the results depend on the processing

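No called member changed direction under any alternative, which their choice by a fall in these same libraries made likely. At FDR 0.01, 9 members were called. With an added requirement of an absolute log2 fold change above 2, 0 were (edgeR; 28 members had an unadjusted p under 0.05, and none reached that size). With 1 library left out, 10 to 18 members were called, the median log2 fold change over members was −0.27 to −0.21, 10 to 21 other ribosome biogenesis genes were called, and Myc was at −0.92 to −0.49. Scd2 was called by limma-voom (−0.62, FDR 0.0105), with quality weights (−0.82, FDR 9.75e-05) and without Scd2-m/-m replicate 1, and ranged from −0.83 to −0.48 with 1 library left out. The cause was not tested. With a replicate block, 23 members and 20 other ribosome biogenesis genes were called; the labels share only a replicate number, and no member lost its call under the pairing. Of the calls across all genes, 55.2% were in the higher direction with TMM and 65.4% with no scaling factors, where 18 members were called. No setting moved the median of all genes beyond 0.036. Some members that were not called crossed 0. Nop14 was at 0.02 with quality weights, 0.02 without scaling factors and −0.04 to 0.04 with 1 library left out, and Gnl3 and Wdr12 ran from −0.09 to 0.03 and from −0.06 to 0.06 with 1 library left out. Odc1 was at 0.20 with quality weights. Halved counts called 22 members. The standard error was 0.14 for Polr1e, the member with the fewest counts, and 0.30 for Odc1, 0.19 for Myc and 0.17 for Npm1, which had more.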
